A study of Caenorhabditis elegans with 2 samples.

Results

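The adult gonad transcriptome of wild-type Caenorhabditis elegans was described from 1 RNA-seq library, the wild-type member of a series of 2 samples. It was chosen by its label alone, and its column of raw counts in the deposited table of 46739 genes holds 2873065 counts. The paper reports far more sequencing reads per sample than that. How many were lost or merged at each step before counting is not given in the sources used here. The worms were N2 hermaphrodites, the standard wild-type strain, grown on solid media and dissected as adults 1 day after the last larval stage (L4), with no transgene, mutation or treatment. The study compared these gonads with those of a strain whose X chromosome is split, to ask how X-linked genes are transcribed in the germ line. That second library was not used here. Gonads were pooled into 1 library, so there is no replicate and no test, and each value describes this library alone. The intervals given are exact binomial (Clopper-Pearson) at 95% and cover counting error only, since the reads were amplified and whether molecular identifiers were collapsed is not given in the sources used here. A dissected gonad holds germ cells together with sheath and other somatic gonad cells, and in such bulk RNA fewer cells of a type cannot be told apart from less RNA per cell.

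Each arm of the hermaphrodite gonad is a tube in which germ cells divide at the distal end, enter meiosis and grow into oocytes at the proximal end. Sperm are made first, in the last larval stage, and the adult gonad makes oocytes. Germ nuclei share a core of cytoplasm and load it with ribosomes, maternal messenger RNAs and their binding proteins, which the embryo uses before its own genes are switched on. The X chromosome carries few genes with germline functions and bears repressive chromatin marks in dividing and early meiotic germ cells, while oocytes transcribe more of it.

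The library carried the genes that define the labelled tissue. All 5 germ cell markers were detected, from 95.4 CPM for htp-3, a protein of the meiotic chromosome axis, to 875 CPM for mex-5, a zinc-finger RNA-binding protein. CPM is a gene's count scaled to a library total of 1000000, and a gene was taken as detected at 3 counts or more, which is 1.04 CPM. CPM is a share of the counts, and genes within a list are ordered by it. Where levels of genes or lists of different length are compared, CPM per kb of exon length is also given. The poly(T) primer carried an adapter used in amplification, and the random primer used after fragmentation carried the other. By that design the amplified fragments hold the poly(A) end of a transcript, and CPM per kb would set long genes too low. How reads lie along transcripts, and which scale is the better 1, was not tested. All 6 oocyte markers were detected as well, from 80.8 CPM for lin-41 to 2872 CPM for cpg-2. Of 4 sperm markers 3 were detected and none exceeded 6.27 CPM. Of 8 markers of the sheath, spermatheca and distal tip cell 4 were detected, led by the filamin gene fln-1 at 171 CPM, and fkh-6, lim-7 and lag-2 had no count. Each set of markers of other cells had fewer counts than the germ cell set (6301) and the oocyte set (19485). The intestinal and neuronal sets, with 1157 and 1093 counts, exceeded the set of the sheath, spermatheca and distal tip cell, with 963. None of the 2 coelomocyte markers had a count, and the 5 markers of embryos with zygotic transcription had 3 counts in all. Intestinal markers other than yolk genes had at most 57.8 CPM (asp-1), the yolk genes vit-2 and vit-6 had 115 and 197 CPM, and the intestinal regulator elt-2 and the esterase gene ges-1 had no count. The 5 muscle markers lay between 6.27 and 41.1 CPM. Of 6 markers of hypodermis and cuticle 3 were detected, with 420 counts in all and col-119 highest at 104.4 CPM. Among the 6 neuronal markers 1 held most of the counts, snb-1 (synaptobrevin, a vesicle fusion protein), at 336 CPM, while the other 5 neuronal markers had between 1.04 and 30.98 CPM.

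Most of the RNA came from few genes. With at least 3 counts 8796 genes were detected, 3560 more had 1 or 2 counts, and 34383 had none. A total of 329 genes held 50% of the counts and 2928 held 90%. The 100 most abundant genes held 32.8% of the counts (32.7 to 32.8%), the 1000 most abundant 68.3% and the 5000 most abundant 98.0%. At the upper end 446 genes had 1000 counts or more and 19 had 10000 or more.

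Protein-coding genes made up 93.4% of the counts, and 8497 of 19664 (43.2%) were detected. Ribosomal RNA genes added 5.52%, in a library primed with poly(T). Nearly all of that came from rrn-3.1, a 26S ribosomal RNA gene near the right end of chromosome I (WBcel235, 15064838 to 15068346), which alone had 154629 counts or 5.38% of the library. Of 2082 pseudogenes 159 were detected, with 0.162% of the counts. Small RNA genes were close to empty: of 15363 piRNA genes 1 was detected, and none of 258 miRNA and 634 tRNA genes was. Poly(T) priming would largely miss RNAs without a poly(A) tail, so these counts do not measure how abundant small RNAs were in the gonad. With 3 counts as the limit that a count of 0 allows, levels under 1.04 CPM could not be told apart from 0.

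Among the 25 genes with the most counts, 13 encode proteins of the cytosolic ribosome. The first of these was F54D7.7, named rpl-41.2 in the annotation, with 41709 counts, 14517 CPM and, for its short transcript, 51847 CPM per kb of exon length, the highest value on that scale. It was followed by rps-14 with 5617 CPM, rps-12 with 5390 CPM, rps-24 with 4547 CPM and the stalk protein gene rla-1 with 4466 CPM. The remaining protein-coding genes at the top fall into a few roles. In folding, sip-1, a small heat-shock protein, had 25676 counts and 8937 CPM. Hsp-90, listed in the table as daf-21, had 3973 CPM, the constitutive Hsp70 gene hsp-1 had 3788 CPM and the cyclophilin gene cyn-7 had 4075 CPM. In RNA binding, cey-2, a Y-box protein of maternal messenger RNA particles, had 5846 CPM, and R09B3.3 (rbm-3.2) had 3649 CPM. In translation, the elongation factor gene eef-1A.1 had 5288 CPM and rack-1, a scaffold on the small ribosomal subunit, had 4670 CPM. The nucleoside diphosphate kinase gene ndk-1 had 6486 CPM, and cpg-1, a chondroitin proteoglycan of the eggshell, closed the 25 with 2967 CPM. The only noncoding RNA among them apart from rrn-3.1 was C36C9.10, on the X chromosome, with 6227 CPM.

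Dividing by exon length changed the order. Of these 25 genes 15 were also among the 25 highest in CPM per kb, and of the top 100 genes 76 remained in the top 100. The long hsp-90 transcript went from place 14 in CPM to place 112 in CPM per kb, with 1684 CPM per kb, and cpg-1, which was place 25 in CPM, had 1571 CPM per kb. Between quartiles of exon length of detected protein-coding genes, the median level rose from 24.0 CPM in the shortest to 36.5 CPM in the longest. In CPM per kb the same quartiles fell from 38.2 to 10.2. Neither scale was even over length.

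**Figure D1:**
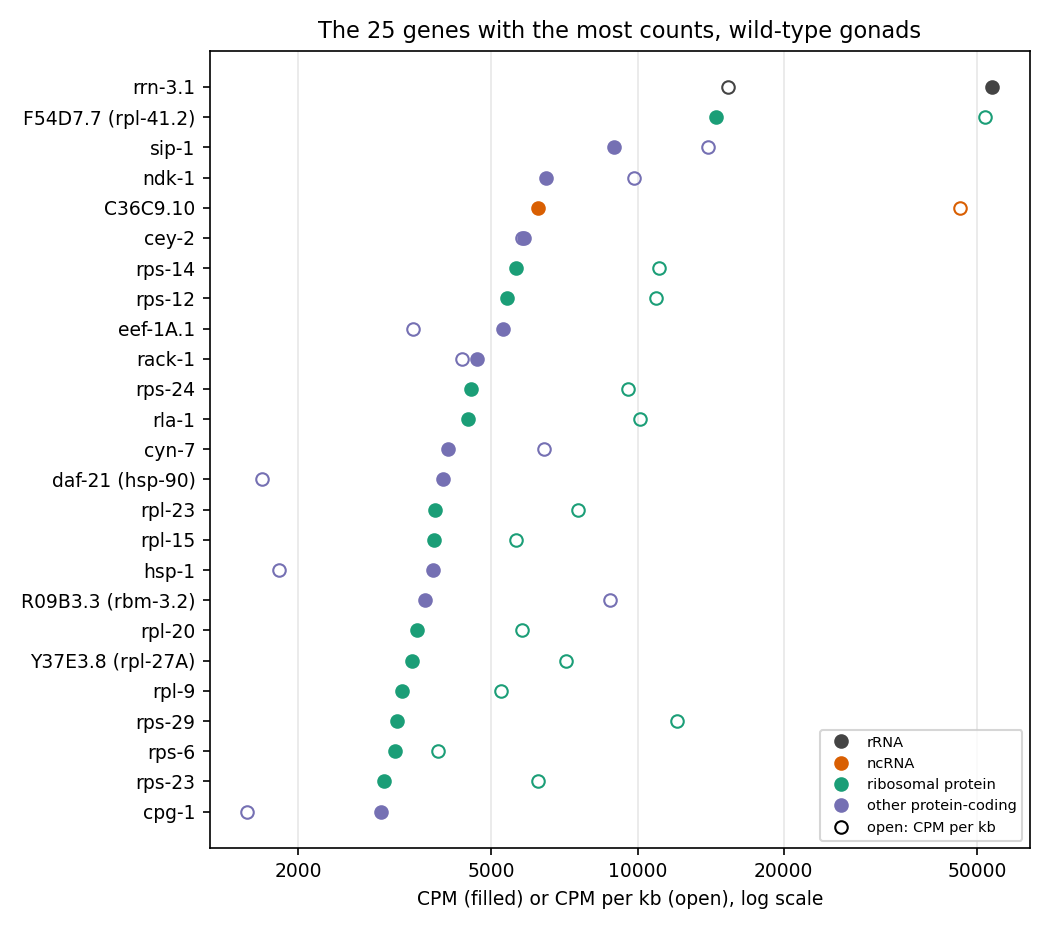
The 25 genes with the most counts in the wild-type gonad library, ordered from the top, with CPM as filled points and CPM per kb of exon length as open points on 1 log axis. Colours give the kind of gene. rrn-3.1 stands at 53820 CPM, and per kb of exon length F54D7.7 (51847) and C36C9.10 (46130) stand above it.

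The machinery of protein synthesis was the largest group. The 85 genes of the cytosolic ribosomal protein list held 18.3% of all counts (18.2 to 18.3%), and 83 of them were detected, with a median of 2026 CPM or 3391 CPM per kb. Of these genes 69 reached 1000 CPM, and 57 were among the 100 most abundant of the library. The exceptions were rpl-37 with 1 count and rpl-42 with none. W01D2.1, named rpl-37.1 in the annotation, had 1099 counts and 383 CPM. C37A2.7 (rplp-2.1), a stalk protein that the list does not hold, had 5564 counts. All 42 translation factors were detected, with 2.11% of the counts, and after eef-1A.1 came eef-1G at 2387 CPM, iff-1, a germline form of eIF5A, at 1943 CPM and eef-1B.1 at 1670 CPM.

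Protein turnover and folding followed. All 33 proteasome subunits were detected, with 1.52% of the counts and a range from 21.9 to 1060 CPM, the highest being rpn-7 of the regulatory particle. Their median was 376 CPM per kb. The polyubiquitin gene ubq-1 had 1995 CPM. Of 52 ubiquitin and SCF ligase genes 39 were detected, with the SCF adaptors skr-2 at 570 CPM (752 CPM per kb) and skr-1 at 266 CPM (308 CPM per kb), while skr-4, skr-5, skr-6, skr-8 and skr-12 had no count. Of 69 chaperone genes 59 were detected, with 1.77% of the counts. Besides hsp-90 and hsp-1, the mitochondrial chaperonin gene hsp-60 had 847.5 CPM and the cytosolic chaperonin subunit cct-5 had 774 CPM. Of the heat-inducible genes, hsp-16.41 had 46 counts, hsp-16.2 had 23 and hsp-70 had 18. The near-identical pairs hsp-16.1 with hsp-16.11 and hsp-16.48 with hsp-16.49 had no count, and values of such copies are uncertain.

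Mitochondrial genes split by where they are encoded. All 12 protein genes of the mitochondrial genome were detected, and with its ribosomal RNAs and tRNAs that genome held 0.892% of the counts. The cytochrome oxidase genes ctc-3 with 1874 CPM, ctc-1 with 1858 CPM and ctc-2 with 1268 CPM were the highest. The 44 nuclear genes of the respiratory chain were all detected and held 1.15%, led by the ATP synthase subunits atp-2 with 1812 CPM and H28O16.1 (atp-1) with 1259 CPM. All 71 mitochondrial ribosomal protein genes were detected at a median of 60.6 CPM. Per kb their median was 76.2 CPM, against 3391 CPM for the cytosolic ribosome.

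In the nucleus, all 34 splicing factors were detected at a median of 218 CPM, with the Sm protein gene snr-1 highest at 841 CPM. Of 39 nuclear pore and transport genes 38 were detected, led by the GTPase gene ran-1 at 1483 CPM and the importin alpha gene ima-2 at 1313 CPM. The histone list behaved differently. Of 82 core and linker histone genes 32 were detected and 48 had no count. Its 4 highest genes held 77.8% of its counts, and they are the H2A variant htz-1 at 1585 CPM, the linker histones hil-4 at 1275 CPM and hil-5 at 1175 CPM and the H3.3 gene his-72 at 766 CPM. Many of the other histone genes are near-identical copies, and HTSeq leaves out reads that align to several places by default, so their values are uncertain. Poly(T) priming would also largely miss histone transcripts without a poly(A) tail, and which genes that concerns was not tested. The actin genes act-1, act-2 and act-3 are likewise similar copies with uncertain values, and had 569, 855 and 485 CPM. Of 13 tubulin genes 6 were detected, and tbb-2, tba-1, tbb-1 and tba-2 held 95% of the list.

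Among germline genes, those of the oocyte held the most counts. The lists of maternal RNA-binding proteins, PUF proteins and eggshell genes hold 54 genes, of which 52 were detected, with 3.96% of all counts (3.94 to 3.98%). All 25 maternal RNA-binding protein genes were detected between 80.8 and 5846 CPM. After cey-2 came its relative cey-3 at 2255 CPM, oma-2, needed for oocyte maturation, at 1909 CPM and car-1, a component of maternal RNA granules, at 1862 CPM. Per kb of exon length cey-2 had 5782 CPM and oma-2 1235 CPM. Of 12 PUF genes, whose proteins bind the ends of messenger RNAs and repress them, puf-3 at 834 CPM, puf-11 at 638 CPM and puf-5 at 352 CPM were the highest. The stem cell regulators fbf-1 and fbf-2, members of the same family that act at the distal end, had 41.4 and 35.5 CPM.

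All 17 eggshell and egg activation genes were detected, with 1.5% of the counts and a median of 556 CPM (145 CPM per kb). The eggshell proteoglycans cpg-1 and cpg-2 had 2967 and 2872 CPM, the vitelline layer gene cbd-1 had 2048 CPM and the permeability barrier gene perm-4 had 1523 CPM. At the other end spe-11, which sperm supply to the egg, had 3 counts. The yolk receptor gene rme-2 had 938 CPM. Its ligands, the yolk proteins, are made in the intestine, and the 6 vitellogenin genes ranged from 58.8 CPM for vit-1 to 197 CPM for vit-6. Per kb of exon length, rme-2 had 327 CPM and vit-6 had 39.0 CPM.

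Genes of germ granules and small RNA pathways were detected throughout, at medians of 61.2 and 25.22 CPM per kb, against 275 CPM per kb for the maternal RNA-binding proteins. In CPM the median of the maternal RNA-binding proteins was 408. All 17 germ granule genes were detected at a median of 167 CPM, led by deps-1 at 528 CPM, the Argonautes prg-1 at 442 CPM and wago-1 at 405 CPM, and pgl-1, a scaffold of the granules, at 367 CPM. All 34 small RNA pathway genes were detected at a median of 70.7 CPM. The lowest among them was alg-3 with 3 counts, an Argonaute that acts in sperm formation, and its partner alg-4 had 5. Of 13 stem cell and meiotic entry genes 12 were detected, with nos-2 at 385 CPM, nos-3 at 297 CPM, the translational repressor gld-1 at 254 CPM and gld-3 at 252 CPM. The Notch receptor gene glp-1, which keeps distal germ cells dividing, had 128 CPM. Of its targets, sygl-1 had 2 counts, while lst-1, of the same list, had 526 counts and 183 CPM.

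Meiotic genes were likewise all detected. All 25 genes of pairing, synapsis and the chromosome axis were detected at a median of 83.9 CPM, with the kinase plk-2 at 348 CPM, the axis genes him-3 at 295.5 CPM and htp-1 at 201 CPM and cra-1 at 143 CPM. The kinase gene chk-2, which starts pairing, had 4 counts. All 32 genes of meiotic breaks, repair and crossover were detected at a median of 51.3 CPM, the highest being xnd-1 at 246 CPM. All 23 cell cycle genes were detected at a median of 176 CPM, with the B-type cyclins cyb-3 at 1604 CPM and cyb-1 at 681.5 CPM and the kinase cdk-1 at 708 CPM. Per kb of exon length the medians were 73.3 CPM for the cell cycle list, 40.7 CPM for pairing and synapsis and 29.1 CPM for breaks and repair.

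Together the lists of germline, oocyte, meiosis and cell division genes hold 195 genes, of which 192 were detected (98.5%), against 43.2% of all protein-coding genes. They held 5.92% of the counts. The lists for translation, mitochondria, protein turnover, folding, RNA processing and nuclear transport hold 469 genes and 27.9% of the counts. Protein-coding genes in none of the lists numbered 15976 and held 56.2%. The highest genes of that remainder in CPM were sip-1, ndk-1, rack-1, cyn-7 and R09B3.3, given above, followed by the chaperone-like icd-2 at 2212 CPM and the adenine nucleotide carrier ant-1.1 at 2154 CPM.

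Regulators of the X chromosome were present. All 10 genes of the dosage compensation list, whose complex lowers X transcription in somatic cells of hermaphrodites, were detected. The highest was dpy-30 at 599 CPM, a subunit shared with histone methyltransferase complexes, then capg-1 at 129 CPM, mix-1 at 116 CPM and dpy-28 at 109 CPM, all of which also serve outside dosage compensation. The condensin subunit gene dpy-27, specific to dosage compensation, had 26.8 CPM. The SDC genes, which also act in sex determination, were lowest in CPM, with 8.01 CPM for sdc-1 and sdc-2 and 5.92 CPM for sdc-3. Per kb of exon length, mix-1 had 28.5 CPM and dpy-27 5.05 CPM, and sdc-1 and sdc-2 had 2.08 and 0.866 CPM. Of 18 genes for MES proteins and histone methylation 17 were detected. They included mes-4, a methyltransferase that marks germline genes on autosomes, at 193 CPM, mes-2, the catalytic subunit of the worm Polycomb complex, at 143 CPM and mrg-1 at 282 CPM. The Polycomb subunit gene mes-6 had 1 count. The last 272 bases of mes-6 overlap C09G4.4 on the same strand, which had 702 counts, and whether that overlap bears on the count of mes-6 was not tested. Of all detected genes 1084 (12.3%) overlap another gene on the same strand.

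Sperm genes had few counts. The 35 major sperm protein genes held 0.0183% of the counts (0.0167 to 0.0199%), 23 of them were detected, and the highest, msp-59, had 24.0 CPM. These genes are near-identical copies and their single values are uncertain. Among 69 other sperm genes 43 were detected, led by Y51F10.10 (spe-48) at 97.5 CPM and spe-39 at 69.6 CPM. Their median was 3.83 CPM or 6.61 CPM per kb. Which cells the counts of these listed genes came from was not tested.

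Genes of somatic tissues held 0.306% of the counts over 388 list members, and 145 of those (37.4%) were detected. Cuticle collagens were the list with the most members, with 53 of 178 detected and col-122 highest at 126.3 CPM. Body wall muscle genes were all detected, led by the troponin C gene pat-10 at 60.9 CPM. Among 151 neuropeptide and insulin genes 44 were detected, and nlp-36 with 357 counts and 124 CPM was followed by nlp-40 with 10.8 CPM, or 353 and 15.1 CPM per kb. Innexins, which form gap junctions between sheath cells and oocytes, were detected for both partners. On the sheath side inx-8 had 136 CPM and inx-9 25.8 CPM, and on the germ cell side inx-22 had 199 CPM, inx-14 173 CPM and inx-21 59.9 CPM. In the list of the sheath, spermatheca and distal tip cell, fln-1 was the highest at 171 CPM. Near or below the floor were ipp-5 with 4 counts, ceh-18 with 2 and lim-7 with none. How much of the somatic signal came from gonadal cells and how much from attached tissue was not tested.

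Several large families were detected less than protein-coding genes as a whole (43.2%), to different degrees. Unlike that share, these lists also count pseudogenes, a class of which 7.64% was detected. Pseudogenes number 320 among the chemoreceptors, 69 among F-box genes, 25 among C-type lectins and 19 among MATH and BATH genes. Shares without pseudogenes were not computed, so whether each family, MATH and BATH genes above all, lies below 43.2% without them is not shown. Chemoreceptors were near silent. Of 1633 chemoreceptor genes 17 were detected (1.04%) and 1452 had no count, and sri-40 with 125 counts and srsx-10 with 73 were the highest. C-type lectins, many of which take part in immunity, were the clearest case of a family carried by few members. Of 265 genes 27 were detected (10.2%), and clec-87 at 2775 CPM, clec-88 at 1266 CPM and clec-91 at 380 CPM held 96.9% of the family's counts, and the next, clec-222, had 26.5 CPM. Of 391 F-box genes 61 were detected (15.6%), with fbxa-215 highest at 302 CPM. Of 93 MATH and BATH genes 32 were detected (34.4%), led by bath-42 at 275 CPM and bath-40 at 219 CPM. Nuclear hormone receptors reached 78.7 CPM (nhr-49), with 67 of 285 detected (23.5%), and cyp-31A5 was the highest of the UDP-glucuronosyl transferase and cytochrome P450 genes at 76.9 CPM. It shares that range with cyp-31A2 at 65.1 CPM and cyp-31A3 at 52.2 CPM, cytochromes of the same subfamily.

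**Figure D2:**
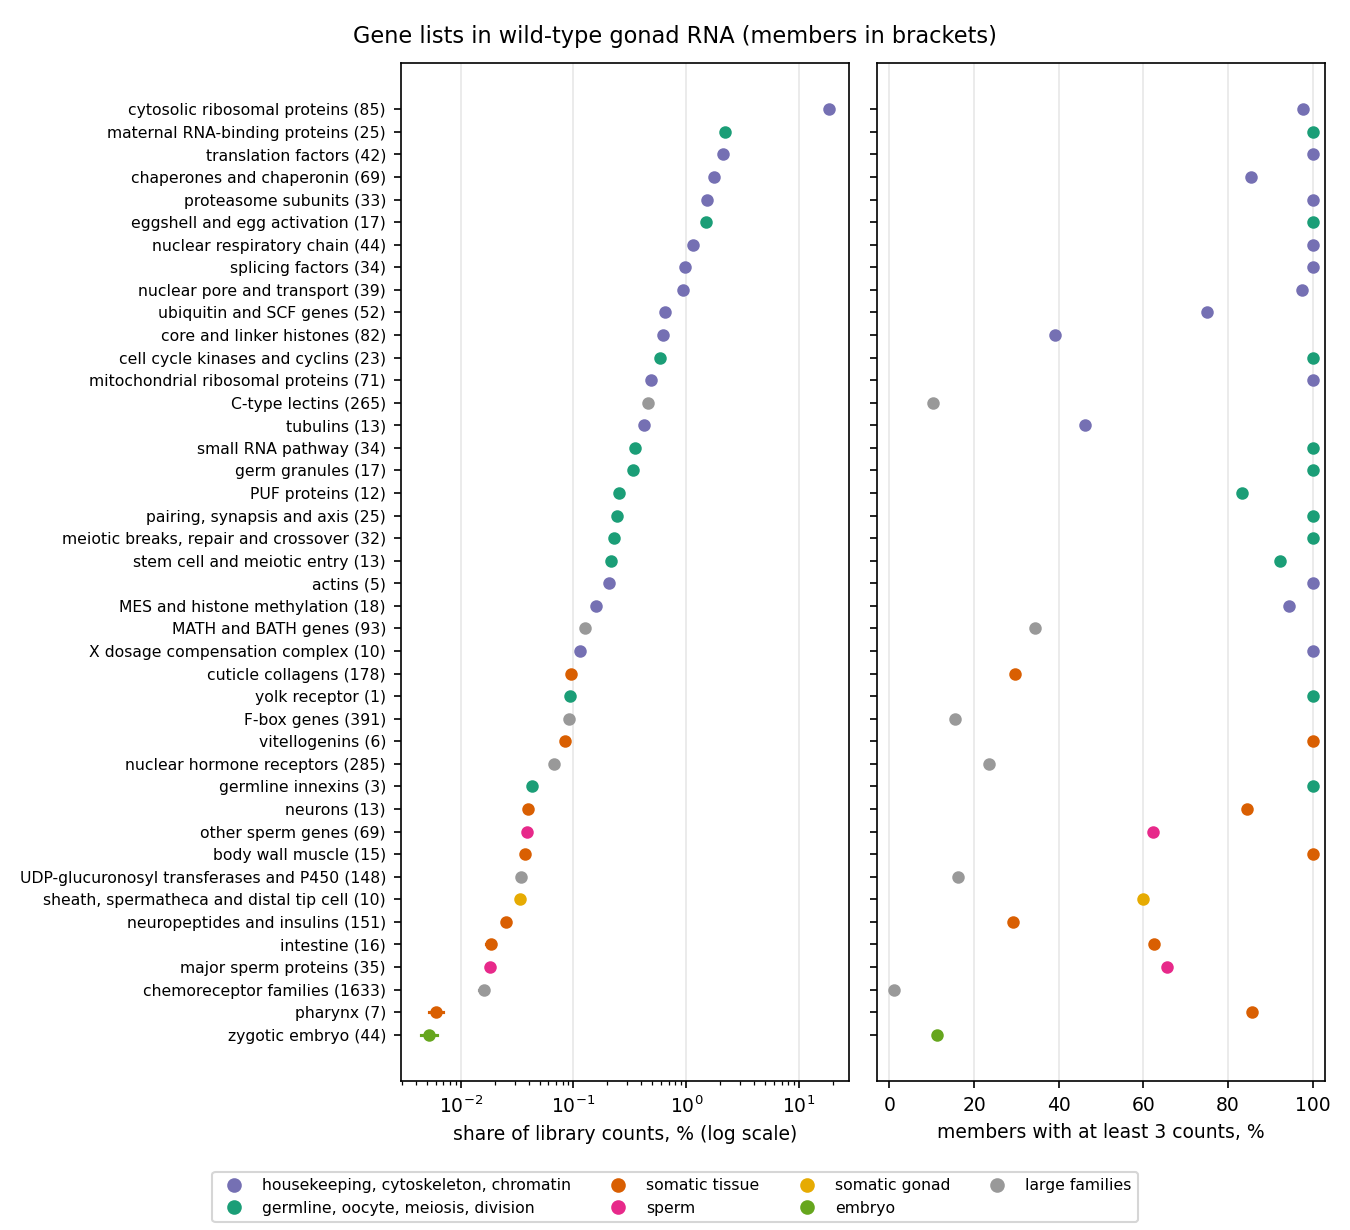
Share of all library counts (left, percent, log axis, bars 95% exact binomial intervals, mostly smaller than the points) and share of members with at least 3 counts (right, percent) for 42 gene lists, with the number of members in brackets and colours for the kind of list. The coelomocyte list, with no count, is left out. Cytosolic ribosomal proteins hold 18.3% of counts, and 17 of 1633 chemoreceptor genes are detected.

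Counts were spread unevenly over the chromosomes. Chromosomes I and III held 14.4% and 13.2% of the protein-coding genes and 25.8% and 24.1% of the protein-coding counts. Chromosome V held 25.13% of these genes and 13.8% of the counts. On the X chromosome 13.5% of the genes held 2.39% of the counts (2.37 to 2.40%). The highest gene was rrn-3.1 on I, rpl-10 on II (2825 CPM), sip-1 on III, rack-1 on IV, cyn-7 on V and C36C9.10 on X.

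Detection and level separated V from X. On V 26.6% of protein-coding genes were detected, the lowest share of any chromosome, followed by X with 37.7%, II with 44.2%, IV with 44.5%, I with 58.8% and III with 60.5%. Yet detected genes on V had a median of 23.3 CPM and those on X had 7.66 CPM, against 39.0 CPM for detected autosomal genes. The chemoreceptor, lectin, F-box, MATH, nuclear receptor and detoxification families described above make up 26.7% of the protein-coding genes of V and 3.34% of those of X. Without them V reached 34.2% detected and a median of 29.9 CPM, while X stayed at 38.3% and 7.66 CPM.

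**Figure D3:**
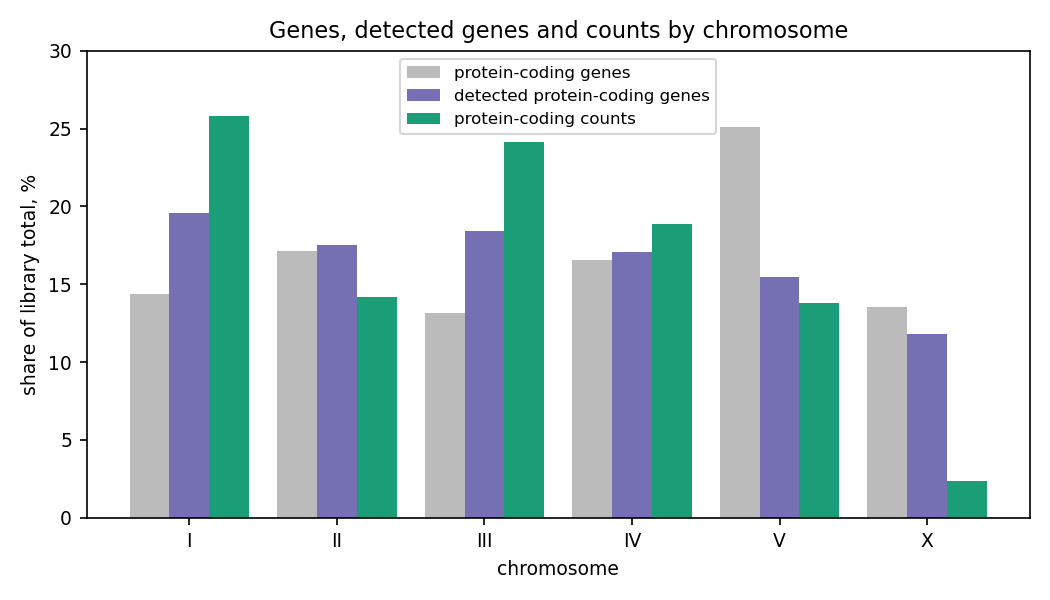
Share of the protein-coding genes (grey), of the detected protein-coding genes (purple) and of the protein-coding counts (green) on each nuclear chromosome, in percent of the library total. On X 13.5% of the genes hold 2.39% of the counts, and on I 14.4% hold 25.8%.

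The X chromosome and the autosomes differed more in the level of their genes than in how many were detected. Among all genes of the table, 1044 of 6009 X-linked genes (17.4%) and 19.02% of autosomal genes were detected, and among protein-coding genes 37.7% and 44.0%. With a floor of 1 count, the shares over all genes were 26.5% on X and 26.4% on autosomes, so the order of the shares over all genes depended on the floor. By contrast 3.59% of detected X-linked protein-coding genes reached 100 CPM, against 27.1% on autosomes, and 56.6% lay under 10 CPM, against 32.2%. At 1000 CPM there were 2 X-linked and 140 autosomal protein-coding genes. The 99th percentile of detected genes was 252 CPM on X and 1784 CPM on autosomes. None of the 100 most abundant protein-coding genes was X-linked, 6 of 500, 16 of 1000 (1.60%) and 292 of 5000 (5.84%). The median of detected X-linked genes of all kinds was 0.200 of the autosomal median. Over protein-coding genes it was 0.196, and per kb of exon length 0.195, with medians of 4.48 CPM per kb on X and 22.9 on autosomes.

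**Figure D4:**
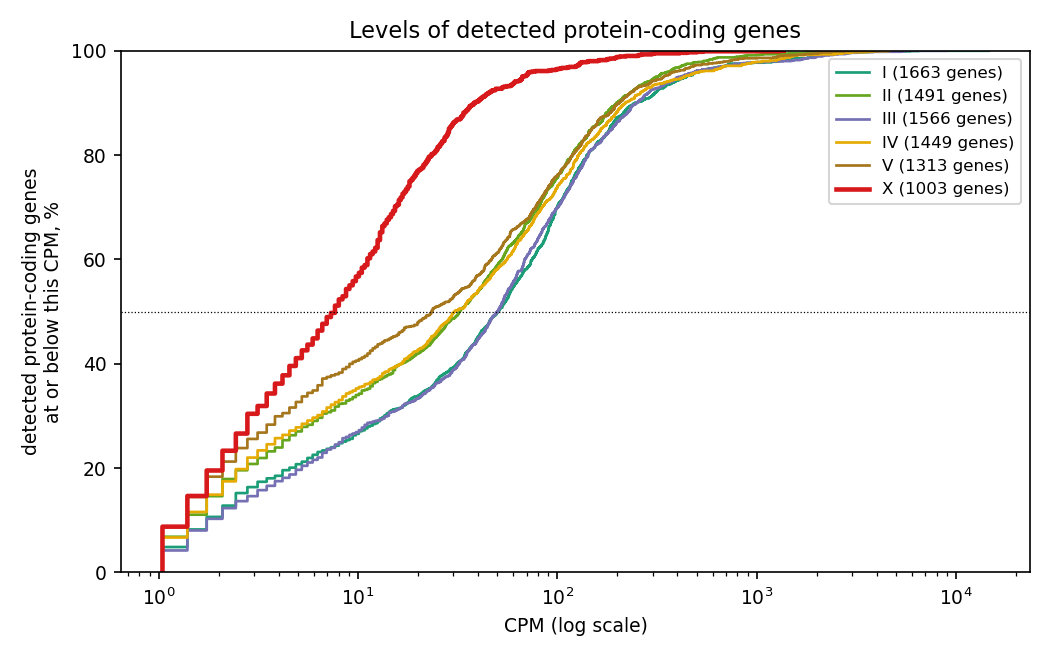
Cumulative share of detected protein-coding genes (percent) at or below each CPM (log axis), 1 line for each chromosome, with the number of detected genes in brackets and a dotted line at 50%. The X line lies above and to the left of the 5 autosomes through most of the range, with a median of 7.66 CPM, and V is the lowest autosome with 23.3 CPM.

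Levels also varied along the chromosomes. Each chromosome was divided, from its first to its last gene, into 3 sections of equal length, left, middle and right, and genes were placed by their midpoint. On all 5 autosomes the middle section had the highest median level of detected genes, for example 67.9 CPM on I, against 40.7 CPM in the left and 34.5 CPM in the right section. On X the middle section had the lowest, 6.27 CPM, against 8.01 and 8.70 CPM. These X values are low and close together. No interval was computed for the medians of sections, so whether the X sections differ was not tested. The share of detected genes on X was 38.6%, 36.9% and 37.6% from left to right. On II it was 31.5%, 50.7% and 52.4%, and on I 65.2%, 64.7% and 46.6%.

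**Figure D5:**
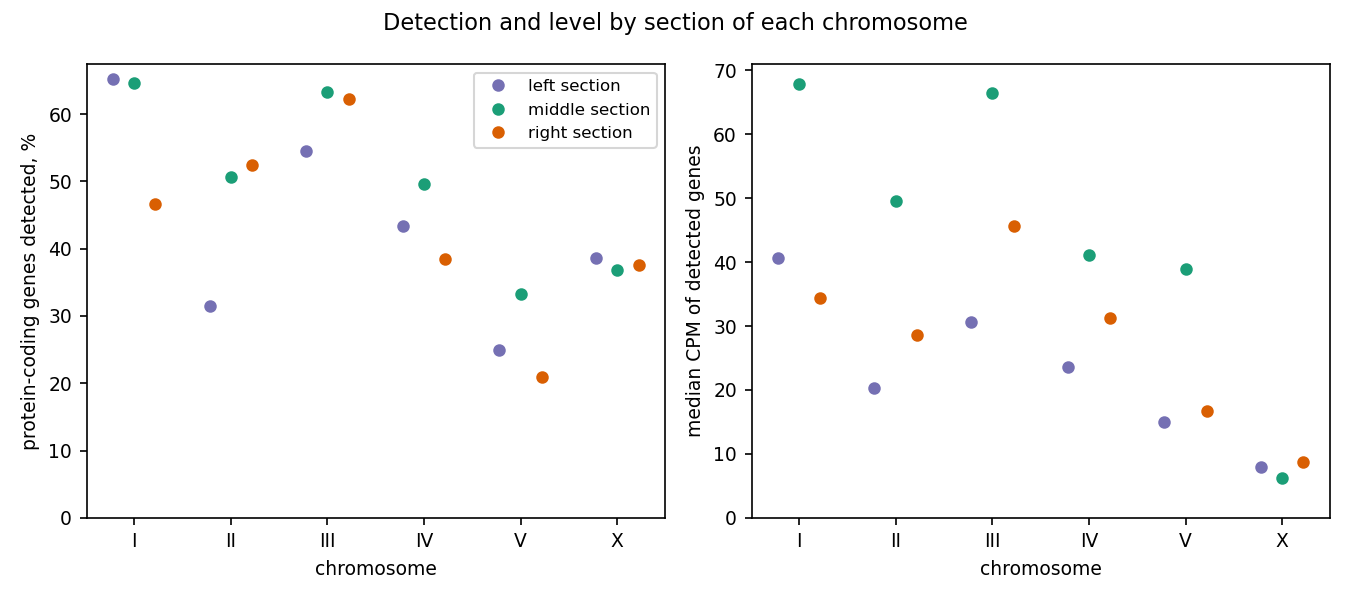
Share of protein-coding genes detected (left, percent) and median CPM of the detected genes (right) in the left, middle and right section (3 of equal length) of each nuclear chromosome. The middle section has the highest median on each autosome and the lowest on X (6.27 CPM). No interval was computed for these medians.

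Few genes made up the X-linked counts. C36C9.10, a noncoding RNA gene of 135 bases (WBcel235, X, 1681752 to 1681886, plus strand), alone had 17892 counts or 20.9% of the X total. No annotated gene overlaps it, and it lies 1065 bases from meg-4, a germ granule gene with 117 counts. The 10 most abundant genes held 39.6% of the X counts, against 15.5% on II and 34.1% on I, where rrn-3.1 is the largest. The 10 most abundant X-linked protein-coding genes held 25.5% of the protein-coding X counts. Noncoding RNA genes other than ribosomal RNA number 24716 in the table, 3101 of them X-linked, and 108 were detected, 23 of them X-linked. Of the 10 most abundant, 6 were X-linked. After C36C9.10 these were F22H10.10 with 403 CPM, C05D9.12 with 334 CPM, the long noncoding RNA linc-7 with 197 CPM, F01G12.19 with 131 CPM and the small nucleolar RNA C14E2.12 with 76.2 CPM. X-linked genes held 87.5% of the counts of these noncoding RNA classes, and 53.8% without C36C9.10. Apart from linc-7 these genes are between 98 and 168 bases long.

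The most abundant X-linked protein-coding genes were F23A7.4 and F23A7.8, neighbours 300 bases apart on the same strand, with 1364 and 1300 CPM. Their exons are short, and per kb they had 6591 and 6374 CPM, places 17 and 21 of the whole library. A second pair of neighbours, Y62H9A.6 (ule-5) and Y62H9A.5 (stha-3), lie 209 bases apart on opposite strands and had 537 and 448 CPM. Then came C07D8.6 with 500 CPM, pdi-2 (protein disulfide isomerase) with 410 CPM, C39D10.7 with 305 CPM, tbh-1 (tyramine beta-hydroxylase, an enzyme of octopamine synthesis) with 296 CPM, lmp-1 (a lysosomal membrane protein) with 264 CPM, ftt-2 (a 14-3-3 protein) with 257 CPM, ZC373.2 with 253 CPM and the ABC transporter mrp-4 with 220 CPM. Vitellogenins held 2.16% of the X counts and X-linked members of all somatic lists 3.35%.

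X-linked members were few and low within the lists of germline genes and of broadly used genes. Among all protein-coding genes 13.5% are X-linked. The germline, oocyte, meiosis and cell division lists hold 6 X-linked genes of 195 (3.08%), 4 of them germ granule genes. These were meg-1 with 194 CPM, meg-3 with 70.7 CPM, meg-4 with 40.7 CPM and meg-2 with 2.09 CPM (6 counts). None of the maternal RNA-binding, eggshell, synapsis, meiotic break, proteasome, splicing or mitochondrial ribosomal genes listed is X-linked. In the lists of translation, mitochondria, turnover, folding, RNA processing and nuclear transport, 27 of 469 genes are X-linked (5.76%), and 22 of these were detected at a median of 29.2 CPM against 203 CPM for the autosomal members, or 17.9 against 149 CPM per kb. The 2 X-linked ribosomal protein genes, rpl-11.2 and rpl-25.1, had 66.5 and 29.9 CPM, while the list's median was 2026 CPM. By contrast 86 of the 388 genes of the somatic lists are X-linked (22.2%), and there the median of detected members was 7.83 CPM on X and 5.22 CPM on autosomes, or 7.79 and 4.41 CPM per kb.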

How the data were processed

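The wild-type library was made from total RNA of dissected N2 gonads by poly(T) priming with a molecular identifier, in vitro transcription, fragmentation and random priming. The authors deposited raw counts per gene, made with HTSeq (version 0.6.0) at default settings from reads trimmed by cutadapt (version 1.12) and mapped by TopHat2 (version 2.1.1) on WBcel235. Normalized values, fold changes and decisions in the table, from DESeq2 (version 1.12.4), compare the strains and were not used. CPM is the count divided by the wild-type total of 2873065 and multiplied by 1000000. Biotypes and exon lengths (the union of exons) were taken from the Ensembl annotation (release 115, WBcel235). It lacks 255 of the genes, with 2720 counts. Python (version 3.11.15), pandas (version 2.3.3) and scipy (version 1.17.1) were used, and scripts were tested on simulated data. The text names the 25 most abundant genes, 15 on X, the first of each autosome and up to 4 members of each of 43 lists, with defining members at 0. Other members, such as low ones, germline X-linked genes and genes outside the lists, were named after their values were seen. Lists and choices were made with earlier results of these data known.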

Additional observations from a re-analysis of the deposited data

How the results depend on the processing

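The number of detected genes stayed within 1.5 times of 8796 at floors of 1, 5 and 10 counts and for protein-coding genes (12356, 7801, 6792 and 8497). Over all genes, the share detected on X and on autosomes was 26.5% and 26.4% at a floor of 1 count. It was 14.7% and 16.96% at 5, and 11.8% and 14.9% at 10. It was 37.7% and 44.0% for protein-coding genes, and 38.3% and 49.5% for protein-coding genes outside the large families, an alternative chosen after seeing the data. The ratio of median CPM, 0.200 on X to autosomes, was 0.286 at a floor of 1 count and 0.222 at 10. The X share of counts, 2.98%, was 3.01% without mitochondrial genes, 2.67% without the 10 most abundant genes, 2.89% without the somatic and sperm lists and 2.39% for protein-coding genes. In alternatives chosen after seeing the data it was 3.16% without rRNA genes and 2.38% without C36C9.10. The ratio of mean CPM over all genes, 0.210, was 0.188 without the 10 most abundant genes, 0.205 without the somatic and sperm lists and 0.157 for protein-coding genes. Per kb of exon length it was 0.547, and C36C9.10, 135 bases long, has 46130 CPM per kb. Ratios added after seeing the data were 0.166 without C36C9.10, 0.141 for protein-coding genes outside the large families and 0.184 for protein-coding genes per kb. The 10 most abundant genes held 11.7% of counts, 11.8% without mitochondrial genes and 7.15% without rRNA. Ribosomal proteins held 18.3%, or 18.4% and 19.4%, and the oocyte lists 3.96%, or 3.99% without mitochondrial genes. No paired analysis was possible because the wild-type group is 1 library and no groups were compared. With 1 library, variation between animals and preparations is unknown, and levels under 1.04 CPM could not be told apart from 0.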
